A study of Homo sapiens with 6 samples.

Results

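Cholesterol and fatty acid synthesis genes were followed in HCT116, an established line of human colorectal cancer cells, after overexpression of MST3, a protein kinase encoded by STK24. The set holds 32 genes of the 58938 entries in the deposited table, matched by gene symbol: 18 enzymes that build cholesterol (7 of the mevalonate steps and 11 from squalene onwards), 8 enzymes that make, lengthen or desaturate fatty acids, 5 genes that control the SREBP transcription factors, and STARD4, a cytosolic sterol carrier. The MST3 group had 3 libraries from cells that received an overexpression plasmid, and the vector group had 3 libraries from cells labelled wild type. Both groups grew in IMDM with serum, were transfected by lipofection at 60% density, got fresh medium after 6 hours and gave RNA after 30 hours. The sources used here give neither the promoter on the plasmid nor the share of cells that took it up, and RNA was measured from the whole culture. Fewer transfected cells and less RNA per cell therefore cannot be told apart.

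Cholesterol is built from acetyl-CoA through mevalonate, isoprenoid units, squalene and lanosterol, while palmitate is built from the same precursor by carboxylation and repeated condensation. SREBP-2, from SREBF2, mainly drives the sterol genes and SREBP-1, from SREBF1, mainly drives the fatty acid genes. When sterol is scarce, SCAP escorts the SREBP precursors from the endoplasmic reticulum to the Golgi, where proteases release the active factor. INSIG1 and INSIG2 proteins hold SCAP back when sterol is plentiful. SREBP binds sterol regulatory elements, often together with NF-Y at a CCAAT box and Sp1 at a GC box, so transcripts of the whole set can move together. Tumour cells commonly make much of their own fatty acid.

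Promoter sequence is shown for 4 genes to set the gene whose window holds the consensus SREBP element beside the 3 sterol enzymes with the smallest p. RefSeq promoters (GRCh38) matched 28 of the 32 genes, with 39 windows in all. ACAT2, FASN, FDFT1 and SQLE had no entry. Each line gives the 150 bases before an annotated start, 5′ to 3′ on the strand of the gene, at chr22:41832955-41833104 (plus strand) for SREBF2, chr1:154936720-154936869 (minus strand) for PMVK, chr10:1049120-1049269 (minus strand, 1 of 3 annotated starts) for IDI1 and chr11:65111722-65111871 (plus strand) for TM7SF2. Capitals mark the sterol regulatory element consensus TCACNCCAC and the CCAAT box, which reads ATTGG where it lies on the opposite strand. The SREBF2 window holds both, the IDI1 and TM7SF2 windows hold a CCAAT box, and the PMVK window holds neither.
SREBF2: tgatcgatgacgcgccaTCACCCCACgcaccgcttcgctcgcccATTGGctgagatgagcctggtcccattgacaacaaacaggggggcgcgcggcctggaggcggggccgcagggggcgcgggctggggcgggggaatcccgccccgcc
PMVK: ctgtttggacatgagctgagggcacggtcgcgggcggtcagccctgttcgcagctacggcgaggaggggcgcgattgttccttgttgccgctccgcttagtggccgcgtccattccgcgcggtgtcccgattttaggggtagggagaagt
IDI1: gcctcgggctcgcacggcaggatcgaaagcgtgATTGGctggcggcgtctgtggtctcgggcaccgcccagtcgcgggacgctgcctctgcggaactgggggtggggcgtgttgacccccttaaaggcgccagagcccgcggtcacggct
TM7SF2: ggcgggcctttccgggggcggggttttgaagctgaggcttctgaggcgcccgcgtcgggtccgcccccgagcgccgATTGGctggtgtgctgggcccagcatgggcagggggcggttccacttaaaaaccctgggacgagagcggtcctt

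Motifs were searched on both strands of the 250 bases before each start. The consensus TCACNCCAC was found in 1 of the 28 genes, SREBF2, against 1.19% of the 8904 tested genes with a window. Counted by window, it was in 1 of the 39 windows of the set and in 0.883% of all 35116 windows. The CCAAT box was found in 20 of the 28 genes: 13 of 15 sterol enzymes, 4 of 7 fatty acid enzymes, 2 of 5 SREBP control genes and STARD4. By window, it was in 24 of the 39 windows of the set and in 32.01% of all windows, and 41.7% of the 8904 tested genes with a window held it. The GC box GGGCGG was in 27 of the 28 genes and in 77.5% of the tested genes with a window. None of these 3 motifs contains another. A match is a description of the letters and was not tied to binding, and many known SREBP sites differ from the consensus.

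The libraries held 15289213 to 17209736 recovered reads in the MST3 group and 17296201 to 17708029 in the vector group. STK24 had 63.7, 72.2 and 76.0 FPKM (fragments per kilobase of gene, with the depth scaling of the authors) in the MST3 libraries, against 17.1, 17.4 and 17.4 FPKM in the vector libraries. The groups did not overlap, and the log2 difference was 1.97 (SE 0.09, limma adjusted p = 0.000998; exact permutation p = 0.1, the smallest that 3 against 3 allow). Of 10 colorectal epithelial markers, 6 averaged at least 1 FPKM. The 10 summed to 1530 to 1939 FPKM in MST3 libraries and 1614 to 1664 FPKM in vector libraries. Most of this sum came from the keratins KRT19, KRT8 and KRT18, which averaged 957, 356 and 223 FPKM over the 6 libraries. CDX2 averaged 3.33 FPKM, VIL1 0.01 FPKM and LGALS4 0.02 FPKM, and CDX1 and CEACAM5 were at 0 in all 6 libraries. Leukocyte, endothelial and hepatocyte markers all averaged under 1 FPKM, and of 5 fibroblast markers only COL1A1 did not, at 4.35 and 4.16 FPKM in the MST3 and vector groups. The labels do not say whether replicates were separate cultures, so every p-value here reflects the scatter of these libraries, which may be technical.

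The comparison asks whether MST3 overexpression changed lipid synthesis transcripts, and whether the sterol and fatty acid arms differed in this. No gene of the set passed the test across all genes in either arm. The largest differences lay in the sterol arm and in both directions: PMVK was 1.59 times as high in MST3 libraries as in vector libraries, and IDI1, which acts 2 steps later, was 0.815 times as high. SCD and FASN, both of the fatty acid arm, had the highest levels of the set, and the difference between group means was smaller than the SD among MST3 libraries for each.

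All 32 genes averaged at least 1 FPKM and entered the fit of 13036 genes, so none was lost to the expression filter. With limma on log2(FPKM + 1), 0 of the 32 had an adjusted p under 0.05, against 1 gene (0.00767%) among all tested genes, which was STK24. At an unadjusted p under 0.05 there were 2 of the 32, PMVK and IDI1, against 5.38% of all tested genes, so the share in the set was close to that background. This count was 8 of the 32 and 2554 of all genes without MST3 replicate 2, 3 of the 32 and 869 of all genes without MST3 replicate 3, and 3 of the 32 and 444 of all genes without vector replicate 1. Without vector replicate 2 or 3 it was 1 of the 32, PMVK, beside 298 and 515 of all genes. With voom on the recovered reads, 0 of the 32 passed after adjustment and 4 had an unadjusted p under 0.05, against 871 of all 13036 genes, and STK24 was again the 1 gene called. All 3 MST3 libraries were above all 3 vector libraries for 1 gene of the set, PMVK, against 5.19% of tested genes. All 3 MST3 libraries were below all 3 vector libraries for 3 genes, IDI1, FDFT1 and ACSS2, against 6.7% of tested genes. The smallest adjusted p in the set was 0.719.

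The 95% interval of the log2 difference lay within 0.5 of 0 in either direction for 27 of the 32 genes and within 1 for all 32. Over all 13036 tested genes, the intervals of 9702 lay within 0.5 and those of 12283 within 1. In point estimates, 11 of the 32 were higher and 21 lower in the MST3 group, with a median log2 difference of -0.05. Among all tested genes 53.4% were lower and the median was -0.01. The medians were 0.05 for the mevalonate enzymes (4 higher, 3 lower), -0.07 for the enzymes from squalene onwards (4 higher, 7 lower), -0.06 for the fatty acid enzymes (2 higher, 6 lower) and -0.10 for the SREBP control genes (1 higher, 4 lower). Leaving out MST3 replicate 1 brought the last to -0.01, and leaving out MST3 replicate 3 to -0.18.

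**Figure D1:**
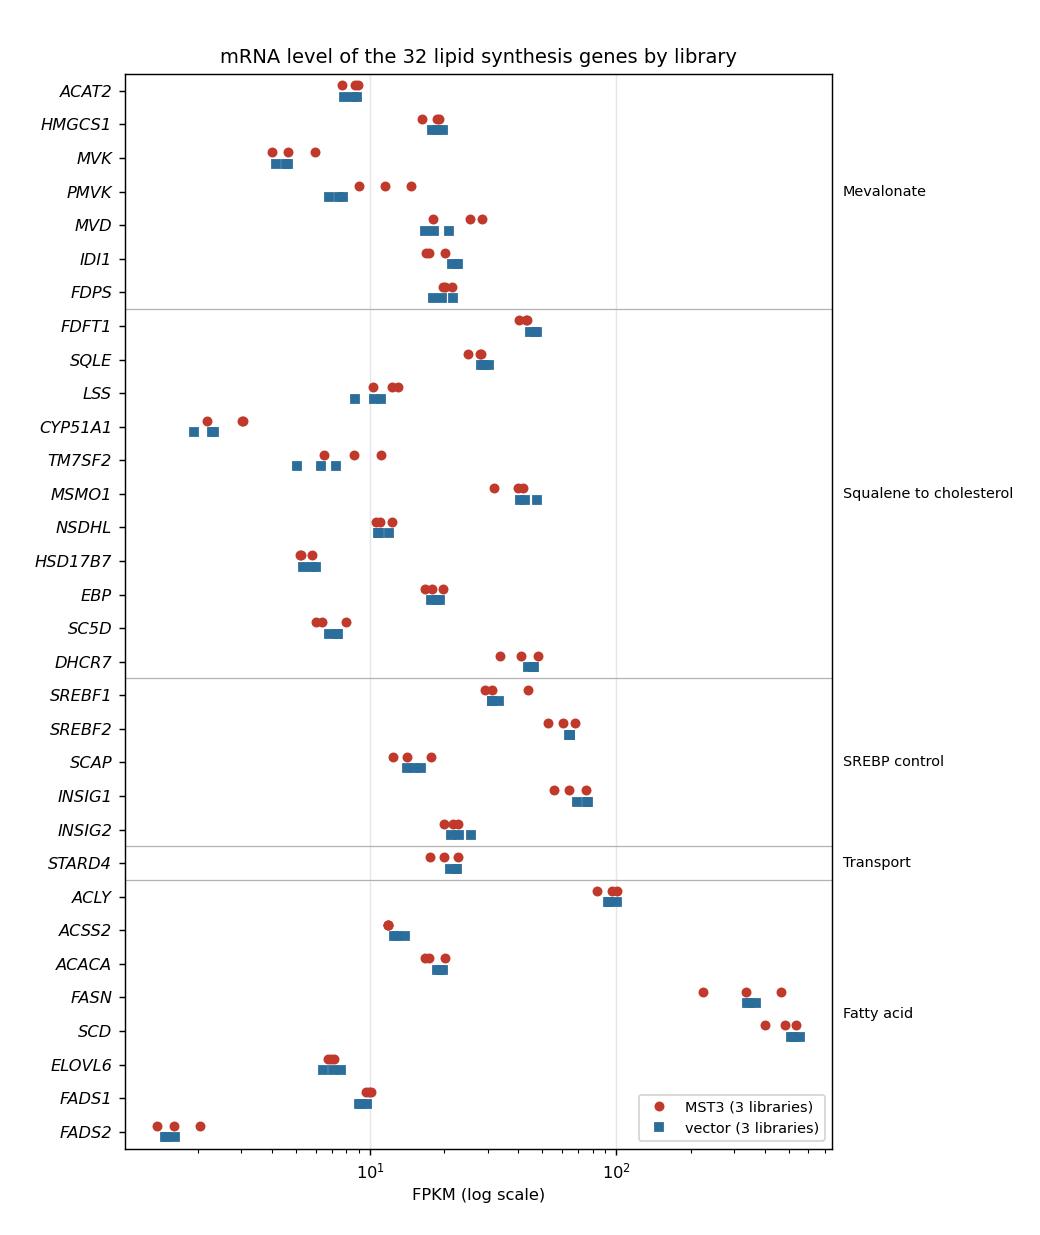
FPKM of each of the 32 genes on a log axis, with circles for the 3 MST3 libraries and squares for the 3 vector libraries, grouped by role. SCD and FASN lie to the right of all other genes, and the MST3 circles lie apart from the vector squares for PMVK, IDI1, FDFT1 and ACSS2.

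**Figure D2:**
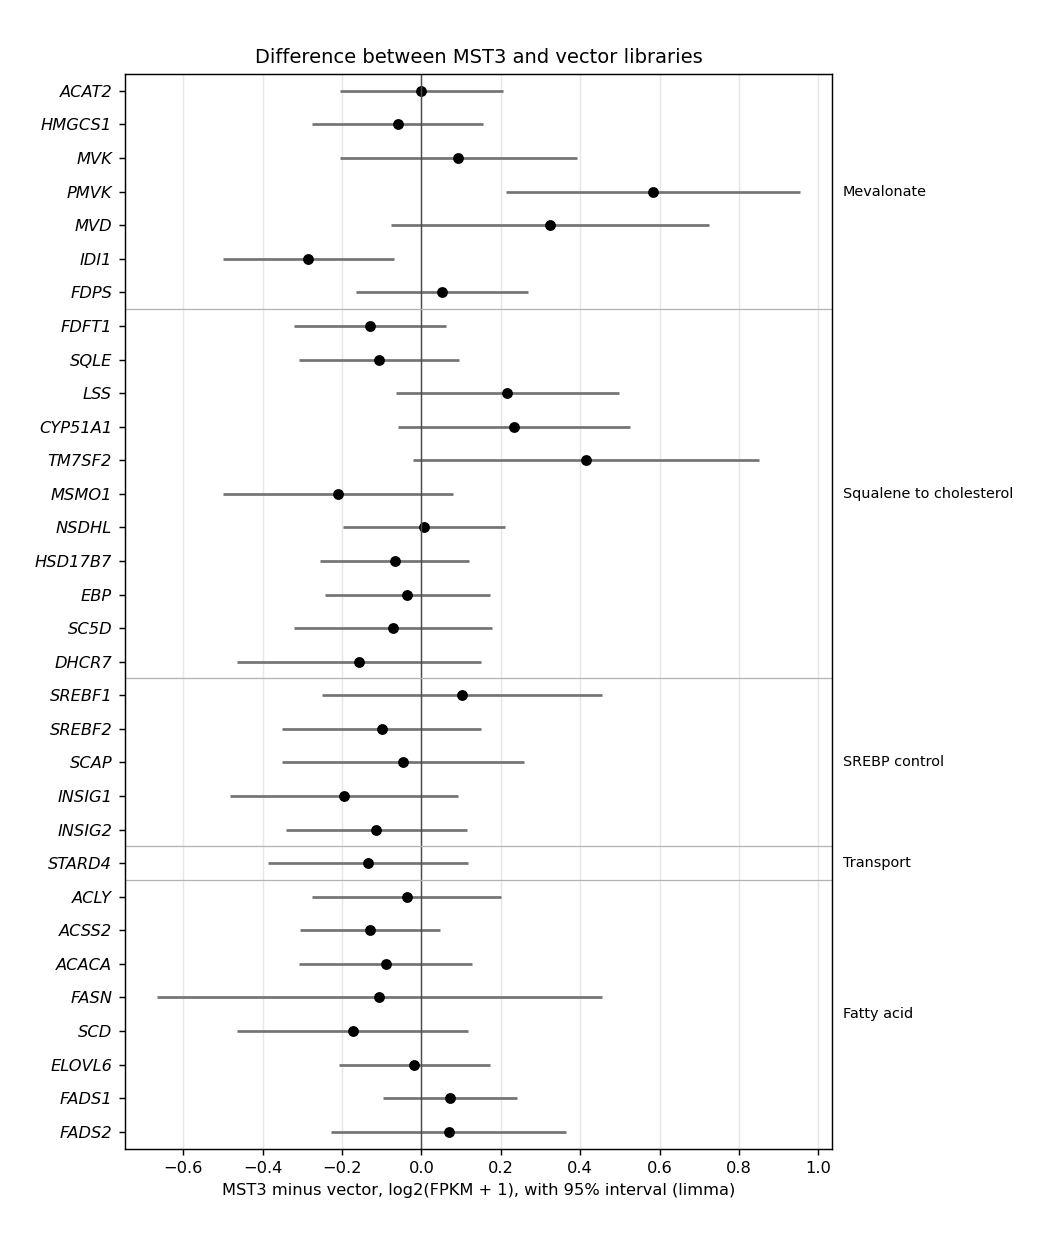
Difference between MST3 and vector libraries for each gene on the log2(FPKM + 1) scale, as the limma estimate (point) with its 95% interval (line). The intervals of PMVK and IDI1 do not reach 0 before adjustment over all 13036 genes, and that of FASN is the widest, from -0.67 to 0.45.

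The mevalonate steps begin with ACAT2, which joins acetyl-CoA units, and HMGCS1, which makes HMG-CoA. ACAT2 averaged 8.41 ± 0.665 FPKM in MST3 libraries and 8.40 ± 0.524 FPKM in vector libraries (SD, n = 3 each), and HMGCS1 averaged 17.96 ± 1.52 FPKM in MST3 libraries and 18.7 ± 0.981 FPKM in vector libraries. The body of ACAT2 overlaps TCP1 on the opposite strand, which averaged 83.6 FPKM, and the sources used here do not give the strand setting of the counting. Of the 32 genes, 19 overlap an annotated gene on the opposite strand. MVK, which phosphorylates mevalonate, averaged 4.85 ± 1.005 FPKM in MST3 libraries and 4.44 ± 0.260 FPKM in vector libraries. FDPS, which makes farnesyl diphosphate, averaged 20.5 ± 0.874 FPKM in MST3 libraries and 19.8 ± 1.84 FPKM in vector libraries. The log2 differences of these 4 genes lay between -0.06 and 0.09, with intervals that included 0.

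PMVK (chr1:154924734-154936991, minus strand, GRCh38) adds the second phosphate to mevalonate. It had 14.6, 8.99 and 11.5 FPKM in MST3 replicates 1 to 3, against 7.47, 6.84 and 7.74 FPKM in vector replicates 1 to 3. Every MST3 library was above every vector library, but the MST3 libraries spread far more widely among themselves, with an SD of 2.83 against 0.465 FPKM. The log2 difference was 0.58 (95% interval 0.21 to 0.95, limma p = 0.00714, adjusted p = 0.719; exact permutation p = 0.1). PMVK is short, at 1280 bases in the table, and the fewest reads behind any of its 6 values were 150.

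MVD decarboxylates mevalonate diphosphate to isopentenyl diphosphate. Its levels were 25.4, 17.96 and 28.4 FPKM in MST3 libraries and 18.2, 16.7 and 20.9 FPKM in vector libraries. MST3 replicate 2 lay within the vector range and the other 2 lay above it (log2 difference 0.33, 95% interval -0.08 to 0.73, limma adjusted p = 0.719). IDI1 (chr10:1039152-1049170, minus strand, GRCh38) isomerizes isopentenyl diphosphate to dimethylallyl diphosphate. It had 16.8, 20.1 and 17.3 FPKM in MST3 libraries, against 21.4, 22.4 and 22.7 FPKM in vector libraries. All 3 MST3 values were below the lowest vector value, by the smallest margin in replicate 2. The log2 difference was -0.28 (95% interval -0.50 to -0.07, limma p = 0.0165, adjusted p = 0.719; exact permutation p = 0.1).

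FDFT1, squalene synthase, commits farnesyl diphosphate to sterols and was the sterol enzyme with the highest level. It had 40.1, 43.5 and 43.1 FPKM in MST3 libraries, against 44.4, 47.8 and 46.7 FPKM in vector libraries. The groups did not overlap, and the highest MST3 value stood just under the lowest vector value (log2 difference -0.13, 95% interval -0.32 to 0.06, limma adjusted p = 0.719). SQLE, which oxidizes squalene, averaged 27.1 ± 1.78 FPKM in MST3 libraries and 29.2 ± 1.14 FPKM in vector libraries. LSS, which closes the ring to lanosterol, averaged 11.8 ± 1.37 FPKM in MST3 libraries and 10.0 ± 1.26 FPKM in vector libraries. CYP51A1, the lanosterol demethylase, had the lowest level of the sterol enzymes, with 2.75 ± 0.492 FPKM in MST3 libraries and 2.17 ± 0.221 FPKM in vector libraries, and at least 118 reads in each library.

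TM7SF2 is a sterol reductase of the steps after lanosterol. It had 8.59, 6.52 and 11.025 FPKM in MST3 libraries, against 7.25, 5.07 and 6.32 FPKM in vector libraries. MST3 replicates 1 and 3 were above all vector libraries and replicate 2 was below vector replicate 1 (log2 difference 0.41, 95% interval -0.02 to 0.85, limma adjusted p = 0.719). VPS51 overlaps TM7SF2 on the same strand and averaged 19.0 FPKM, so reads of the shared stretch are uncertain. MSMO1, a methyl sterol oxidase, averaged 37.8 ± 5.21 FPKM in MST3 libraries and 43.7 ± 3.63 FPKM in vector libraries. DHCR7, the reductase that can complete cholesterol, averaged 40.9 ± 7.15 FPKM in MST3 libraries and 45.3 ± 1.31 FPKM in vector libraries. The other 4 enzymes of these late steps, NSDHL, HSD17B7, EBP and SC5D, had log2 differences of -0.07 to 0.01. HSD17B7 has a transcribed pseudogene, HSD17B7P2, which averaged 2.99 FPKM against 5.58 FPKM for HSD17B7 over the 6 libraries, so the split of reads between them is uncertain.

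The transcripts of the SREBP control system gave no gene that passed the test. SREBF2 had 52.7, 60.5 and 67.7 FPKM in MST3 libraries and 64.6, 64.0 and 64.5 FPKM in vector libraries. The 3 vector libraries were nearly equal, and the MST3 libraries lay on both sides of them (log2 difference -0.10, 95% interval -0.35 to 0.15; -0.01 without MST3 replicate 1 and -0.19 without MST3 replicate 3). SREBF1 had 29.4, 31.3 and 43.9 FPKM in MST3 libraries and 33.5, 31.2 and 31.2 FPKM in vector libraries. MST3 replicate 3 alone was above the vector range, and the log2 difference of 0.10 became -0.07 without it. SREBF1 overlaps RAI1 on the opposite strand, which averaged 11.2 FPKM. SCAP had 12.3, 14.2 and 17.6 FPKM in MST3 libraries and 16.1, 14.2 and 14.999 FPKM in vector libraries, so the MST3 libraries again enclosed the vector libraries.

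INSIG1, itself an SREBP target in many cells, had 55.8, 74.9 and 63.9 FPKM in MST3 libraries and 76.1, 76.5 and 69.3 FPKM in vector libraries. MST3 replicates 1 and 3 were below the vector range and replicate 2 was within it (log2 difference -0.19, 95% interval -0.48 to 0.09, limma adjusted p = 0.719). Leaving out MST3 replicate 1 gave INSIG1 a difference of -0.09, and leaving out MST3 replicate 2 gave -0.30. INSIG2, which is less responsive to sterol, had 21.8, 22.7 and 20.0 FPKM in MST3 libraries and 21.4, 25.6 and 23.0 FPKM in vector libraries, with overlapping groups (log2 difference -0.11). STARD4 had 19.9, 22.8 and 17.5 FPKM in MST3 libraries and 21.1, 22.6 and 22.3 FPKM in vector libraries. Its MST3 replicate 2 was the highest of the 6 libraries and replicate 3 the lowest (log2 difference -0.13).

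Acetyl-CoA for fatty acid synthesis comes from citrate through ACLY and from acetate through ACSS2. ACLY averaged 93.4 ± 8.91 FPKM in MST3 libraries and 95.6 ± 4.64 FPKM in vector libraries. ACSS2 had 11.8, 11.9 and 11.8 FPKM in MST3 libraries, against 12.5, 12.8 and 13.9 FPKM in vector libraries. The groups did not overlap, and the MST3 libraries were almost equal to each other, but the log2 difference of -0.13 had a 95% interval of -0.31 to 0.05 (limma adjusted p = 0.719). ACSS2 overlaps GGT7 on the opposite strand, which averaged 5.09 FPKM, and the strand setting of the counting is not given. ACACA, which carboxylates acetyl-CoA to malonyl-CoA, averaged 18.1 ± 1.88 FPKM in MST3 libraries and 19.2 ± 0.477 FPKM in vector libraries.

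FASN builds palmitate, and its values in every library are given because of their spread, chosen after the values were seen. It had 225, 335 and 464 FPKM in MST3 replicates 1 to 3, against 347, 340 and 368 FPKM in vector replicates 1 to 3. The lowest and the highest of the 6 values were both MST3 libraries and differed 2.06-fold. The log2 difference was -0.11 (95% interval -0.67 to 0.45), and it became 0.16 when MST3 replicate 1 was left out and -0.36 when MST3 replicate 3 was left out. SCD, which introduces the first double bond into saturated fatty acids, had the highest level of all 32 genes. It had 402, 534 and 484 FPKM in MST3 libraries and 510, 556 and 526 FPKM in vector libraries. MST3 replicates 1 and 3 were below the vector range and replicate 2 within it (log2 difference -0.17, 95% interval -0.46 to 0.12, limma adjusted p = 0.722). With MST3 replicate 1 left out the difference of SCD was -0.06, and with MST3 replicate 2 left out it was -0.26.

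ELOVL6, which lengthens palmitate, averaged 6.93 ± 0.192 FPKM in MST3 libraries and 7.04 ± 0.572 FPKM in vector libraries. FADS1, a desaturase of polyunsaturated fatty acids, had 9.66, 10.1 and 9.87 FPKM in MST3 libraries and 8.99, 9.31 and 9.73 FPKM in vector libraries. MST3 replicate 1 lay inside the vector range and the other 2 above it (log2 difference 0.07, 95% interval -0.10 to 0.24). FADS2, the partner desaturase, had the lowest level of the 32 genes, with 1.66 ± 0.340 FPKM in MST3 libraries and 1.53 ± 0.0739 FPKM in vector libraries. It overlaps FEN1 on the same strand, which averaged 39.1 FPKM, and FADS1 on the opposite strand, so its low level rests on reads that could be split between them.

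The arms were set side by side in each library as the median deviation of their genes from the mean of the 6 libraries, on the log2(FPKM + 1) scale. The 18 sterol enzymes gave -0.01, -0.03 and 0.06 in MST3 libraries, against 0.01, -0.02 and 0.02 in vector libraries. For the 8 fatty acid enzymes it was -0.11, 0.02 and -0.00 in MST3 libraries, against 0.02, 0.02 and 0.05 in vector libraries. The sterol arm thus overlapped between the groups. In the fatty acid arm, MST3 replicates 1 and 3 stood below all vector libraries, replicate 3 by less, and MST3 replicate 2 lay within the vector range. After removal of trends with GC content and gene length, this arm gave -0.06, 0.05 and 0.04 in MST3 libraries. Vector libraries gave 0.01, 0.03 and 0.02, so MST3 replicates 2 and 3 lay above them all and replicate 1 below. Before that removal, sterol minus fatty acid was 0.10, -0.05 and 0.06 in MST3 libraries and -0.01, -0.04 and -0.03 in vector libraries. The MST3 libraries lay on both sides of the vector libraries, and no test was made of this difference because the genes of an arm are not replicates.

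**Figure D3:**
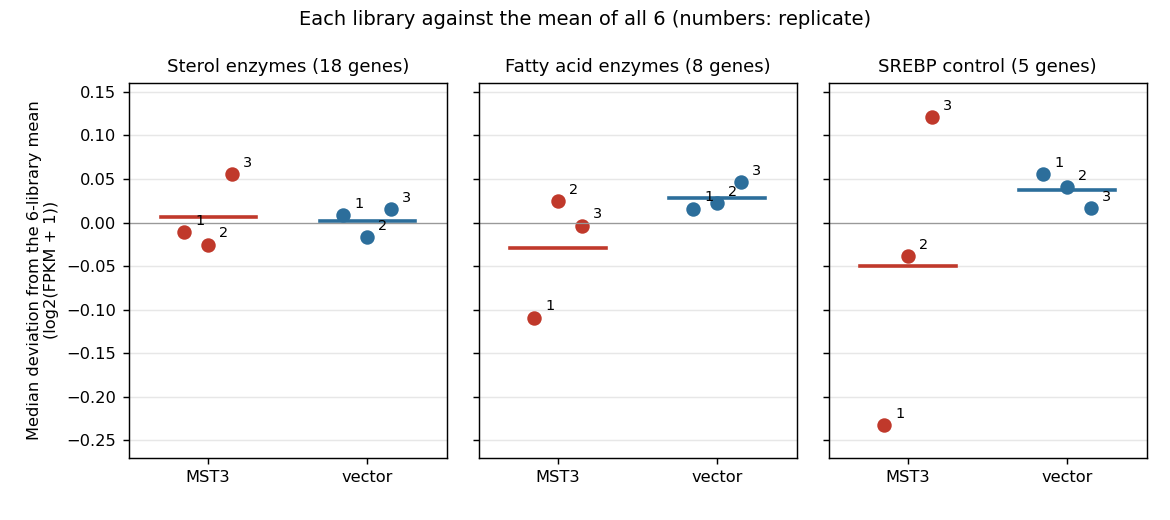
Median deviation of the sterol enzymes, the fatty acid enzymes and the SREBP control genes from the mean of the 6 libraries, on the log2(FPKM + 1) scale, with 1 point per library, the replicate number beside it and a line at the mean of each group. In the SREBP control panel MST3 replicate 1 lies at -0.23 and MST3 replicate 3 at 0.12, on either side of the 3 vector libraries. No trend with GC content or gene length was removed in this figure.

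From the fit across all genes, the sterol median was -0.02, the fatty acid median -0.06 and their difference 0.05. The sterol median lay so near 0 that its sign turned by voom, after trend removal and without MST3 replicate 1 or vector replicate 1, at 0.01 in each case. Without MST3 replicate 1 the fatty acid median was 0.01 and the difference -0.00, and without both MST3 replicates 1 and 3 the fatty acid median was 0.01 and the difference -0.02. In summed level the fatty acid enzymes had 757, 1015 and 1097 FPKM in MST3 libraries and 999.6, 1040 and 1046 FPKM in vector libraries. The sterol enzymes had 312, 314 and 329 FPKM in MST3 libraries and 325, 321 and 329 FPKM in vector libraries. The sum of the fatty acid arm is mostly SCD and FASN: without those genes it was 130, 146 and 149 FPKM in MST3 libraries and 142, 144 and 151 FPKM in vector libraries. The ratio of the fatty acid to the sterol sum was 2.43, 3.23 and 3.33 in MST3 libraries and 3.08, 3.23 and 3.18 in vector libraries, so the lowest and the highest ratio were again in the MST3 group.

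The median of the 5 SREBP control genes varied more between MST3 libraries than that of the 18 sterol or 8 fatty acid enzymes. Its SD was 0.18, against 0.04 and 0.07. After removal of trends with GC content and gene length these were 0.12, 0.02 and 0.06. Whether the smaller number of genes accounts for this was not tested. Before removal, the median deviation of the SREBP control genes was -0.23, -0.04 and 0.12 in the MST3 libraries, against 0.06, 0.04 and 0.02 in vector libraries. After removal it was -0.20, 0.03 and -0.02 in MST3 libraries, against 0.06, 0.10 and 0.03 in vector libraries. MST3 replicates 1 and 3 then both lay below all vector libraries. SREBF2 was 1.80, 1.93 and 1.54 times the FPKM of SREBF1 in MST3 libraries and 1.93, 2.05 and 2.07 times in vector libraries. The highest MST3 ratio and the lowest vector ratio were the same to within 0.01. INSIG1 was 2.56, 3.31 and 3.20 times the FPKM of INSIG2 in MST3 libraries and 3.56, 2.98 and 3.01 times in vector libraries, with overlapping groups.

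The SD among the 3 MST3 libraries was larger than that among the 3 vector libraries for 25 of the 32 genes, and for 77.2% of all tested genes. The median SD on the log2 scale was 0.17 in MST3 libraries and 0.07 in vector libraries for the set, against 0.16 and 0.09 for all tested genes. MST3 replicate 1 was the lowest of the 6 libraries for 16 of the 32 genes, and for 27.4% of all tested genes. By role, these were 7 of the 18 sterol enzymes, 5 of the 8 fatty acid enzymes and 4 of the 5 SREBP control genes. MST3 replicate 3 was the highest of the 6 for 13 of the 32, and for 28.4% of all tested genes.

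The deviations of MST3 replicate 3 moved with GC content, and those of MST3 replicates 1 and 2 did so only weakly. The transcripts of the set held 34.2 to 65.3% GC, with a median of 50.3% for the sterol enzymes, 51.1% for the fatty acid enzymes and 57.1% for the SREBP control genes. In MST3 replicate 3, all 12 genes with at least 55% GC were above the vector mean, with a median log2 difference of 0.35, and 1 of the 9 genes under 45% GC was, with a median of -0.20. Over all tested genes in the same GC ranges the medians of that library were 0.28 and -0.17. Across the 32 genes, which share the library and the vector mean, Pearson's r of the log2 difference with GC content was 0.20, -0.14 and 0.80 in MST3 replicates 1 to 3. Set against the other 2 vector libraries, it was 0.48, -0.73 and 0.45 in vector replicates 1 to 3. Over 12933 tested genes r was 0.17, -0.13 and 0.58 in the MST3 libraries and 0.16, -0.28 and 0.14 in the vector libraries. With the logarithm of gene length, r over the 32 genes was -0.39, -0.23 and -0.04 in MST3 replicates 1 to 3 and -0.14, 0.12 and -0.01 in vector replicates 1 to 3. Over all these tested genes it was -0.29, -0.05 and -0.04 in the MST3 libraries and -0.04, 0.07 and -0.04 in the vector libraries, so replicate 1 had the strongest relation to length among the MST3 libraries in both.

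**Figure D4:**
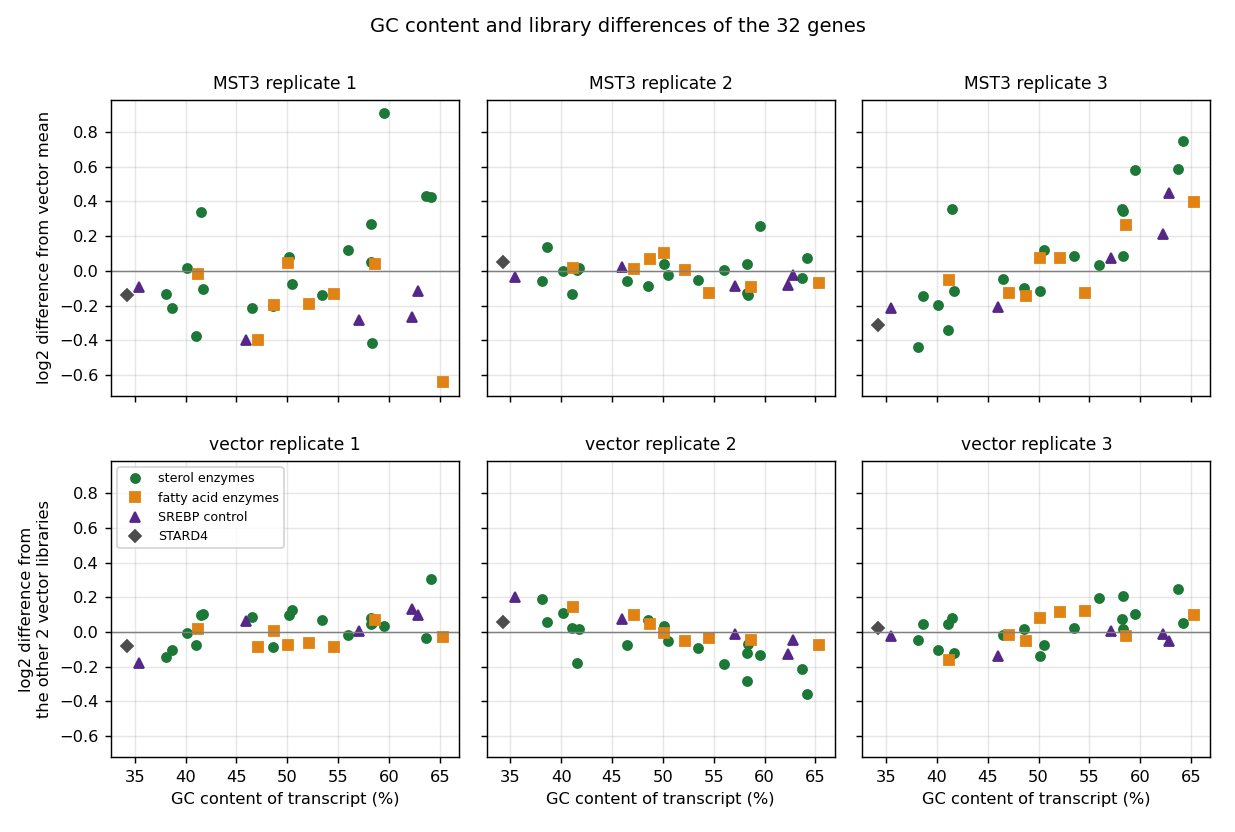
Log2 difference of each of the 32 genes against the GC content of its transcript (percent), in the 3 MST3 libraries against the vector mean (top) and in each vector library against the other 2 (bottom). The points climb with GC content in MST3 replicate 3 (r = 0.80), while PMVK at 0.91 and FASN at -0.64 stand apart in MST3 replicate 1.

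After trends with GC content and gene length were removed from every library over all genes, the r of the set was 0.06, 0.26 and 0.27 in MST3 replicates 1 to 3. The SD of the 32 log2 differences was then 0.27, 0.09 and 0.17 in the MST3 libraries, against 0.30, 0.09 and 0.29 before removal. Of the 32 differences, 20 were then closer to 0 and 12 farther from it. The difference of PMVK was 0.43, that of TM7SF2 0.27 and that of IDI1 -0.22, all closer to 0, while that of FASN was -0.21, that of DHCR7 -0.24, that of SCAP -0.14, that of ACSS2 -0.16 and that of CYP51A1 0.29, all farther from it. None of the 32 passed after adjustment (smallest limma adjusted p = 0.662). At an unadjusted p under 0.05 there were 5 of the 32 (PMVK, IDI1, TM7SF2, ACSS2 and MSMO1) and 898 of 12933 tested genes. Sterol minus fatty acid by library was then 0.06, -0.06 and -0.01 in MST3 libraries and 0.00, -0.05 and 0.00 in vector libraries.

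No other listed gene of lipid metabolism passed the test. Of 45 further genes (20 of sterol and isoprenoid metabolism, 25 of fatty acid and glycerolipid metabolism), 41 entered the fit and 0 had an adjusted p under 0.05 by limma, with 2 at an unadjusted p under 0.05, against 5.38% of all tested genes. In point estimates 13 were higher and 28 lower, with a median log2 difference of -0.08. SOAT1, which esterifies cholesterol, had 6.11, 6.29 and 6.48 FPKM in MST3 libraries, against 6.98, 8.07 and 7.25 FPKM in vector libraries. Its groups did not overlap (log2 difference -0.21, 95% interval -0.39 to -0.02, limma p = 0.0335, adjusted p = 0.719; exact permutation p = 0.1). RNF139, a ubiquitin ligase of the endoplasmic reticulum, averaged 18.3 ± 2.35 FPKM in MST3 libraries and 21.4 ± 0.990 FPKM in vector libraries (limma adjusted p = 0.719).

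HACD3, a dehydratase of fatty acid elongation, had 14.8, 15.5 and 14.8 FPKM in MST3 libraries, against 16.4, 17.9 and 17.6 FPKM in vector libraries. Its groups did not overlap either (log2 difference -0.19, 95% interval -0.37 to -0.01, limma p = 0.0396, adjusted p = 0.719; exact permutation p = 0.1). ELOVL7, a fatty acid elongase, averaged 8.26 ± 1.34 FPKM in MST3 libraries and 9.996 ± 0.415 FPKM in vector libraries (limma adjusted p = 0.719). All 3 MST3 libraries were below all 3 vector libraries for 7 of the 41 genes, against 6.7% of all tested genes.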

How the data were processed

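Values were FPKM, deposited by the authors as 1 table with 1 column per library, with gene positions and lengths. HISAT2 is named per the submitters' processing notes. The sources used here do not give the counting program, its strand setting or the annotation. All 58735 Ensembl entries have the coordinates of GENCODE 29 (GRCh38). FPKM times gene length, divided by a constant for each library, was a whole number of reads in 100% of values (tolerance 0.01). Median-of-ratios factors of the FPKM were 1 in every library.

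The log2(FPKM + 1) values of genes averaging at least 1 FPKM were tested with limma 3.58.1 in R 4.3.3 (eBayes with trend, two-sided, Benjamini-Hochberg over 13036 genes, threshold 0.05). A pseudocount of 1 understates changes of low genes. GC content came from the longest transcript, for 99.2% of tested genes, and trends were natural splines with 3 degrees of freedom. The fit was checked on data with known changes. Tables and plots used pandas 2.3.3, matplotlib 3.10.9 and numpy 2.4.6 in Python 3.11.15.

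Members and lists were chosen with earlier results of these data known. Values in every library are given for the 4 sterol and 3 fatty acid enzymes with the smallest p, the highest-expressed enzyme of each arm, the SREBP control genes and STARD4. From the further sterol and fatty acid lists the 2 genes each with the smallest p were named. Leaving out libraries and other settings were alternatives.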

Additional observations from a re-analysis of the deposited data

How the results depend on the processing

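Under 17 alternatives (pseudocount 0.1, filters, scaling, variance model, replicate block, voom, trend removal, protein-coding genes, each library left out), 0 of the 32 genes were called, and 18 of the 32 kept the sign of their difference in the 11 that can move it. The other 6 (both filters, no variance trend, median-of-ratios factors, the block and protein-coding genes) leave each difference as it was, and the filter of 5 FPKM kept 29 of the 32. Median-of-ratios factors were 1 in every library, so that alternative repeats the original fit, p-values included, and is no separate check. The smallest limma adjusted p of any of the 32 was 0.192, for PMVK without MST3 replicate 2. Leaving out 1 library at a time gave 298 to 2554 genes with an unadjusted p under 0.05. STK24 was called in each alternative and was the only gene called. The sterol median, -0.0181, turned to 0.0148 by voom, 0.00519 after trend removal, 0.00749 without MST3 replicate 1 and 0.00995 without vector replicate 1. Differences of the opposite sign were 0.00266 for ACAT2 by quantile normalization, 0.0318 for ACAT2 and 0.0144 for ELOVL6 by voom, and, after length and GC trend removal, 0.0137 for HMGCS1, 0.00437 for ACAT2, -0.0176 for FDPS, -0.0371 for NSDHL, 0.00602 for HSD17B7, 0.00847 for SC5D and 0.0783 for ELOVL6. With equal FPKM sums, which like protein-coding genes alone was chosen after seeing the data, ACAT2 was 0.00956. Leaving out 1 library at a time gave -0.0904 to 0.0116 for the fatty acid median, -0.0963 to 0.0168 for EBP, -0.176 to 0.0639 for SCAP, -0.358 to 0.163 for FASN, -0.0942 to 0.0403 for ACLY, -0.0981 to 0.00901 for HMGCS1, -0.0454 to 0.0589 for ACAT2, -0.038 to 0.203 for MVK, -0.0508 to 0.0496 for NSDHL, -0.0712 to 0.21 for SREBF1, -0.0291 to 0.151 for FADS2, -0.00828 to 0.118 for FDPS and -0.0713 to 0.0315 for ELOVL6. Without both MST3 replicates 1 and 3, also chosen after seeing the data, the fatty acid median was 0.0076 and sterol minus fatty acid -0.0206, with the lone MST3 library assumed to vary like the vector group. By voom the median over all 13036 tested genes turned as well, from -0.0139 to 0.0152. Causes of these shifts were not tested.

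The replicate numbers were not taken as pairs. Same-numbered libraries deviated together with r = 0.02, 0.23 and 0.04, and differently numbered ones with r from -0.15 to 0.12. With so few libraries these values do not settle whether the numbers mark pairs. With the replicate block, 0 of the 32 and 1 of all genes were called, and 6 of the 32 and 1338 of all genes had an unadjusted p under 0.05. With 3 libraries a group, the intervals limit what is detectable: 5 of the 32 genes could differ by more than 0.5 on the log2 scale within theirs.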
